A study of Homo sapiens with 31 samples.

Results

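Tumours of the cyclophosphamide-resistant PC3 clone D3 were set against tumours of the sensitive PC3 clone A3, both left untreated. The comparison rests on 7 of the 31 arrays of the series, 4 of untreated D3 and 3 of untreated A3, chosen by the clone and the treatment in the sample titles, and it covers 17314 genes. PC3 is an established human prostate carcinoma line. A3 and D3 are in vivo passaged clones of it that were grown again as xenografts to a mean volume of 30 mm3. The labels call A3 sensitive and D3 resistant to cyclophosphamide (CPA). Other groups used below were untreated tumours of D4, a further resistant in vivo passaged clone (4 arrays), untreated tumours of the unpassaged, sensitive line (wt, 4 arrays), and tumours of D3 and A3 given CPA intraperitoneally at 120 mg/kg (4 arrays each). D3 and A3 were each 1 clone, so resistance cannot be told apart from any other difference between them. The labels do not say whether each array held the tumour of a separate animal. The p-values therefore describe the scatter of arrays within groups, estimated over all 31 arrays of the series, which may in part be technical. Each tumour could also hold host cells, and in bulk RNA fewer cells of a type and less RNA per cell cannot be told apart.

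CPA is a prodrug that cytochrome P450 enzymes, chiefly of the liver, convert to a mustard that crosslinks DNA. Aldehyde dehydrogenases and glutathione conjugation can remove its reactive intermediates, and repair of interstrand crosslinks can remove the lesion. In metronomic therapy the drug is given often at low dose, and effects on blood vessels and immune cells add to its action on tumour cells.

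The clones differed in a small share of genes and by modest amounts. At an adjusted p under 0.05 (limma over all arrays, Benjamini-Hochberg over all genes, here the meaning of called), 393 of 17314 genes were called, 2.27% of those tested. Of these 225 were higher in D3 (1.3%) and 168 lower (0.97%). The called differences had a median size of 0.44 on the log2 scale, and 14 genes differed at least 2-fold (0.0809%), 9 of them higher and 5 lower. The median difference over all genes was -0.02. Levels below are the log2 values of the arrays, and differences are D3 minus A3 on that scale with their standard error (SE). In 386 of the 393 called genes no D3 array overlapped any A3 array, and 12.3% of all genes lacked such an overlap. A fit that took the spread from these 7 arrays alone called 105 genes. The count was 168 without A3 replicate 4, 236 without A3 replicate 1, 256 without A3 replicate 2, and 237, 227 and 250 without D3 replicates 1, 2 and 5.

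PASD1, an X-linked cancer/testis antigen, showed the largest difference upward. Its levels were 7.63, 7.83, 7.69 and 7.66 in the 4 D3 arrays and 5.68, 5.47 and 5.74 in the 3 A3 arrays. That is a difference of 2.07 ± 0.12 SE, or 4.21-fold (limma adjusted p 3.88e-13). DHRS2, a short-chain dehydrogenase/reductase, came next. It read 8.18, 8.33, 8.54 and 8.56 in D3 and 6.50, 6.51 and 6.63 in A3, a difference of 1.86 ± 0.12 SE or 3.62-fold (limma adjusted p 3.51e-12). In both genes all D3 arrays stood well clear of all A3 arrays. Untreated wt averaged 5.68 for PASD1 and 6.91 for DHRS2, nearer A3, while D4 averaged 7.51 and 8.73, nearer D3.

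STK26, a serine/threonine kinase also known as MST4, read 7.22, 7.70, 7.08 and 7.42 in D3 and 6.10, 5.93 and 5.83 in A3 (1.40 ± 0.14 SE, limma adjusted p 1.58e-07). ZNF711, an X-linked zinc finger transcription factor, read 6.51, 6.80, 5.94 and 6.41 in D3 and 5.24, 4.54 and 5.39 in A3 (1.36 ± 0.20 SE). ESM1, which encodes the secreted proteoglycan endocan, read 5.57, 6.20, 6.03 and 6.44 in D3 and 4.72, 4.85 and 4.97 in A3 (1.22 ± 0.15 SE). The groups did not overlap in any of the 3, and D3 replicate 3 was the lowest D3 array for STK26 and ZNF711. ANKRD30A, a differentiation antigen also known as NY-BR-1, differed by 1.07 ± 0.15 SE, with D3 arrays from 6.27 to 6.53 and A3 arrays from 4.92 to 5.62. CDC20B, a relative of the mitotic activator CDC20, differed by 1.10 ± 0.17 SE, and the muscleblind splicing regulator MBNL3 by 0.97 ± 0.14 SE. CALB1, the calcium buffer calbindin, had the largest adjusted p of the 12 highest genes (0.98 ± 0.26 SE, limma adjusted p 0.0421), and it was no longer called in 8 of the 15 alternative analyses in which it was tested. The other 3 of the 12 were ZNF626, ZNF788P and ZNF117, described with the zinc finger genes below. Of these 12, ZNF711, ESM1, ANKRD30A, CDC20B, MBNL3, CALB1, ZNF788P and ZNF117 were among the dimmest 30% of genes by mean over all arrays. So were SCN3A and SH2D1B of the 12 lowest genes given below. The alternative that dropped the dimmest genes did not test them.

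**Figure D1:**
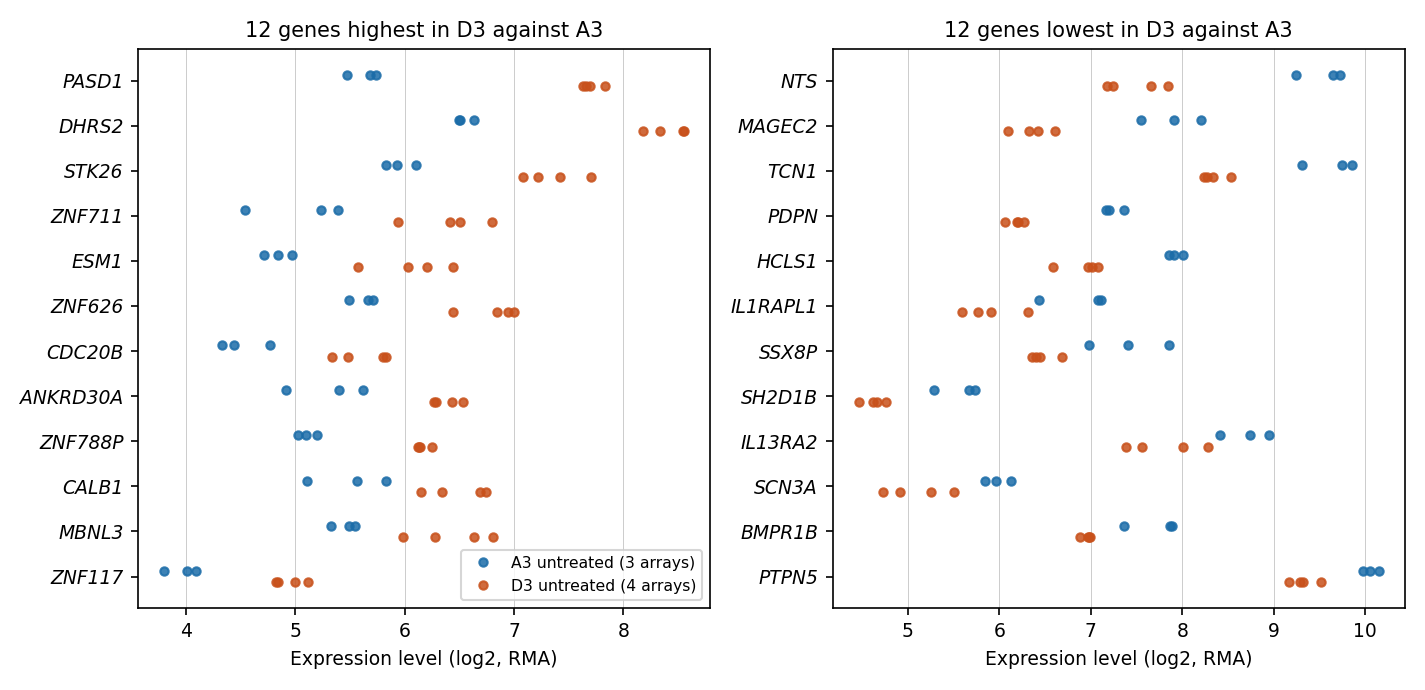
Levels (log2, RMA) by array of the 12 genes that were highest and the 12 that were lowest in D3 among called genes without overlap. Blue points are the 3 untreated A3 arrays and orange points the 4 untreated D3 arrays; PASD1 and DHRS2 stand farthest apart on the left, NTS on the right.

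On the lower side NTS stood first. It encodes neurotensin, a peptide of gut and brain that acts through G protein-coupled receptors. NTS read 7.24, 7.85, 7.17 and 7.65 in D3 and 9.73, 9.25 and 9.65 in A3, 4.18-fold lower in D3 (-2.06 ± 0.24 SE, limma adjusted p 1.95e-06). Untreated wt averaged 6.96 ± 0.41 (SD, n = 4) and D4 6.93 ± 0.42 (SD, n = 4), so A3 was the high line of the 4. The receptors NTSR1 (-0.19, adjusted p 0.814) and NTSR2 (0.08, adjusted p 0.887) were not called.

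MAGEC2, another X-linked cancer/testis antigen, read 6.09, 6.60, 6.43 and 6.32 in D3 and 8.21, 7.55 and 7.91 in A3 (-1.53 ± 0.13 SE, 2.89-fold lower). PDPN, which encodes the membrane mucin podoplanin, read 6.21, 6.27, 6.20 and 6.06 in D3 and 7.36, 7.17 and 7.20 in A3 (-1.06 ± 0.09 SE, 2.09-fold lower). In both genes untreated wt (6.34 and 6.20) was close to D3, and A3 was the high line. TCN1, the vitamin B12 binding protein haptocorrin, read 8.33, 8.24, 8.53 and 8.27 in D3 and 9.74, 9.31 and 9.85 in A3 (-1.29 ± 0.16 SE). Here wt averaged 9.55, close to A3, and D4 8.17, close to D3. TCN1 was the called member of 15 measured genes of vitamin B12 binding and uptake (6.67%, against 0.97% of all genes lower). For 15 genes the 2.27% of all genes called amounts to less than a whole gene. That no other member was called is thus no result about them.

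Receptors, channels and adaptors filled most of the remaining places among the 12 lowest. IL13RA2, a decoy receptor for interleukin 13, was lower by 0.89 ± 0.20 SE, with D3 arrays from 7.39 to 8.28 and A3 arrays from 8.41 to 8.95, close together but without overlap. The signalling chain IL13RA1 was not called (0.09, adjusted p 0.853). IL1RAPL1, a synaptic adhesion protein of the interleukin 1 receptor family, differed by -0.98 ± 0.15 SE, the sodium channel SCN3A by -0.87 ± 0.19 SE and the bone morphogenetic protein receptor BMPR1B by -0.76 ± 0.12 SE. The tyrosine phosphatase PTPN5 differed by -0.74 ± 0.14 SE and the pseudogene SSX8P by -0.94 ± 0.16 SE. HCLS1, a cortactin-like protein of blood cells, read 6.58, 6.97, 7.08 and 7.01 in D3 and 7.91, 7.85 and 8.01 in A3 (-1.02 ± 0.12 SE), and SH2D1B, an adaptor known from natural killer cells, differed by -0.93 ± 0.19 SE. Beside these, none of 14 myeloid markers was called, and their mean level ran from 5.43 to 5.69 in the A3 arrays and from 5.46 to 5.53 in the D3 arrays. For 14 genes the 2.27% of all genes called amounts to less than a whole gene, so that count is no result about these markers. The part of blood cells in the HCLS1 and SH2D1B differences was not tested. Further called genes, picked after their values were seen, were the muscarinic receptor CHRM3 (-0.66 ± 0.08 SE), the protease inhibitor SERPINA1 (-0.70 ± 0.10 SE) and the membrane peptidase MME (-0.70 ± 0.18 SE), whose A3 replicate 2 lay within the D3 range.

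Zinc finger genes stood out among the genes that were higher in D3. KRAB zinc finger proteins bind DNA through rows of zinc fingers and recruit the corepressor TRIM28, chiefly to silence retrotransposons, and many of their genes lie in clusters of duplicates on chromosome 19. The promoters of 4 called members are shown first, because they are close relatives of each other. They are RefSeq sequences on GRCh38.p14, from 250 bases before to 50 after the gene start, 5′ to 3′ on the gene's strand, with capitals for the longest run that the 4 share.
ZNF626, chr19:20661522-20661821, minus strand: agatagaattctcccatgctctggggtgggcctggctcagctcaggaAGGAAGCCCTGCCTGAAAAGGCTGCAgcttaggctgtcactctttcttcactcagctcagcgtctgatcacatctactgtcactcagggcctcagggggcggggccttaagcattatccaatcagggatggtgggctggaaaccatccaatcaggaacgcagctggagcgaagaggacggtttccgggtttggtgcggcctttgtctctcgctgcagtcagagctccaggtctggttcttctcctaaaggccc
ZNF486, chr19:20166964-20167263, plus strand: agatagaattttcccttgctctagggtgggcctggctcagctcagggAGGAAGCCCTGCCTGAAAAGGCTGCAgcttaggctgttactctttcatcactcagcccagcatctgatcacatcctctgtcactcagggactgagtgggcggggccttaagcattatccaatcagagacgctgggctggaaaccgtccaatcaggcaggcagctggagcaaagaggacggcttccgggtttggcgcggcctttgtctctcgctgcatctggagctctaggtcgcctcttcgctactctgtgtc
ZNF492, chr19:22634074-22634373, plus strand: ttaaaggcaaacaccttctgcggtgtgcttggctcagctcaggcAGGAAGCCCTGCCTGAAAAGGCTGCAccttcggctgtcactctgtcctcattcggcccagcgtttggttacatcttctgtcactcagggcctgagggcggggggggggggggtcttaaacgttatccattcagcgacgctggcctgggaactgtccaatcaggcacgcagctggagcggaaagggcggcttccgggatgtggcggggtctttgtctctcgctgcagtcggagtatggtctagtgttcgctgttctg
ZNF493, chr19:21396883-21397182, plus strand: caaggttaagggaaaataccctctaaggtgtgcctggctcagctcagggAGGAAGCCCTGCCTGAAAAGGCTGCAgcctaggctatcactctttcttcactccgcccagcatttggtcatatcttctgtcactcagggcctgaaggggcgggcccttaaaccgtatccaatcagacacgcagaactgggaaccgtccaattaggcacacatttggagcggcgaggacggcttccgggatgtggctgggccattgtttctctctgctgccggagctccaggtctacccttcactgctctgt
The shared run, AGGAAGCCCTGCCTGAAAAGGCTGCA, was found on either strand in 6 of 27305 RefSeq promoters of this length (0.022%), all 6 on chromosome 19. Pairs of the 4 promoters were 75.9% to 87.5% identical. The letters CCAATCA, searched on both strands and counted also where they overlap the other motif, were present in all 25 promoters that the table held for a list of 31 KRAB zinc finger genes of band 19p12, and in 7.28% of all promoters. Such matches describe the letters of these windows only. Genes this alike can share array probes, so the level of a single member is uncertain.

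Of those 31 genes 7 were higher in D3 (22.6%, against 1.3% of all genes) and 0 lower. Their median difference was 0.39, against -0.02 over all genes. ZNF626 read 6.44, 6.94, 6.84 and 7.00 in D3 and 5.71, 5.49 and 5.66 in A3 (1.18 ± 0.13 SE, 2.27-fold, limma adjusted p 1.79e-06). ZNF486 read 6.46, 6.71, 6.31 and 6.49 in D3 and 5.53, 5.52 and 5.63 in A3 (0.93 ± 0.14 SE). ZNF492 read 6.01, 6.77, 6.04 and 6.46 in D3 and 5.41, 5.37 and 5.59 in A3 (0.86 ± 0.15 SE). Each A3 array lay below each D3 array in these 3 genes. The other called members were ZNF429 (0.90 ± 0.20 SE), ZNF493 (0.71 ± 0.17 SE), ZNF682 (0.61 ± 0.15 SE) and ZNF90 (0.59 ± 0.15 SE). ZNF257 (0.83, adjusted p 0.178) and ZNF91 (0.75, adjusted p 0.203) had large differences and wide scatter and were not called. Of the 31, 27 had positive differences, and the exceptions were ZNF729 (-0.07), ZNF85 (-0.06), ZNF431 (-0.03) and ZNF708, close to no difference. The count of 7 was 3 without A3 replicate 2 and 4 without A3 replicate 1 or D3 replicate 2. A3 replicate 2 had the lowest mean level of the list, 5.35, against 5.81 and 5.73 in A3 replicates 1 and 4 and 5.88 to 6.23 in the D3 arrays.

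Genes with a ZNF number were grouped by place after the values were seen, and 15 of 77 on the short arm of chromosome 19 were higher (19.5%). On its long arm 5 of 150 were higher (3.33%), on other chromosomes 6 of 240 (2.5%), and 0 were lower in any of these groups. The medians were 0.29, 0.06 and 0.0017. The difference between the places was not tested. The short arm count was 5 without A3 replicate 2, 9 without A3 replicate 4 and 8 without D3 replicate 2.

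Windows of 11 neighbouring measured genes were ranked by their median difference, and of 17050 windows the 3 highest that did not overlap lay on chromosome 19. The first, from ZNF101 to ZNF626, had a median of 0.58 with all 11 genes positive and 5 called. The second, from ZNF441 to the readthrough transcript ZNF625-ZNF20, had a median of 0.51 with 5 called, among them the pseudogene ZNF788P. The third, from ZNF729 to ZNF726, had a median of 0.39 with 1 called. ZNF788P read 6.13, 6.14, 6.13 and 6.25 in D3 and 5.03, 5.20 and 5.10 in A3 (1.05 ± 0.13 SE, 2.07-fold). The mean level of the genes in the second window was 5.74 to 5.91 in the A3 arrays, 6.21 to 6.34 in the D3 arrays and 6.38 to 6.65 in untreated wt, which makes A3 the low line there. In the first window it was 5.37 to 5.78 in A3, 5.94 to 6.24 in D3 and 5.93 to 6.30 in wt. Outside chromosome 19, ZNF117 (0.97 ± 0.18 SE) and its neighbour ERV3-1, an endogenous retrovirus gene (0.84 ± 0.10 SE), were both higher. ERV3-1 read 6.99, 7.00, 6.76 and 6.86 in D3 and 6.07, 5.97 and 6.14 in A3.

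**Figure D2:**
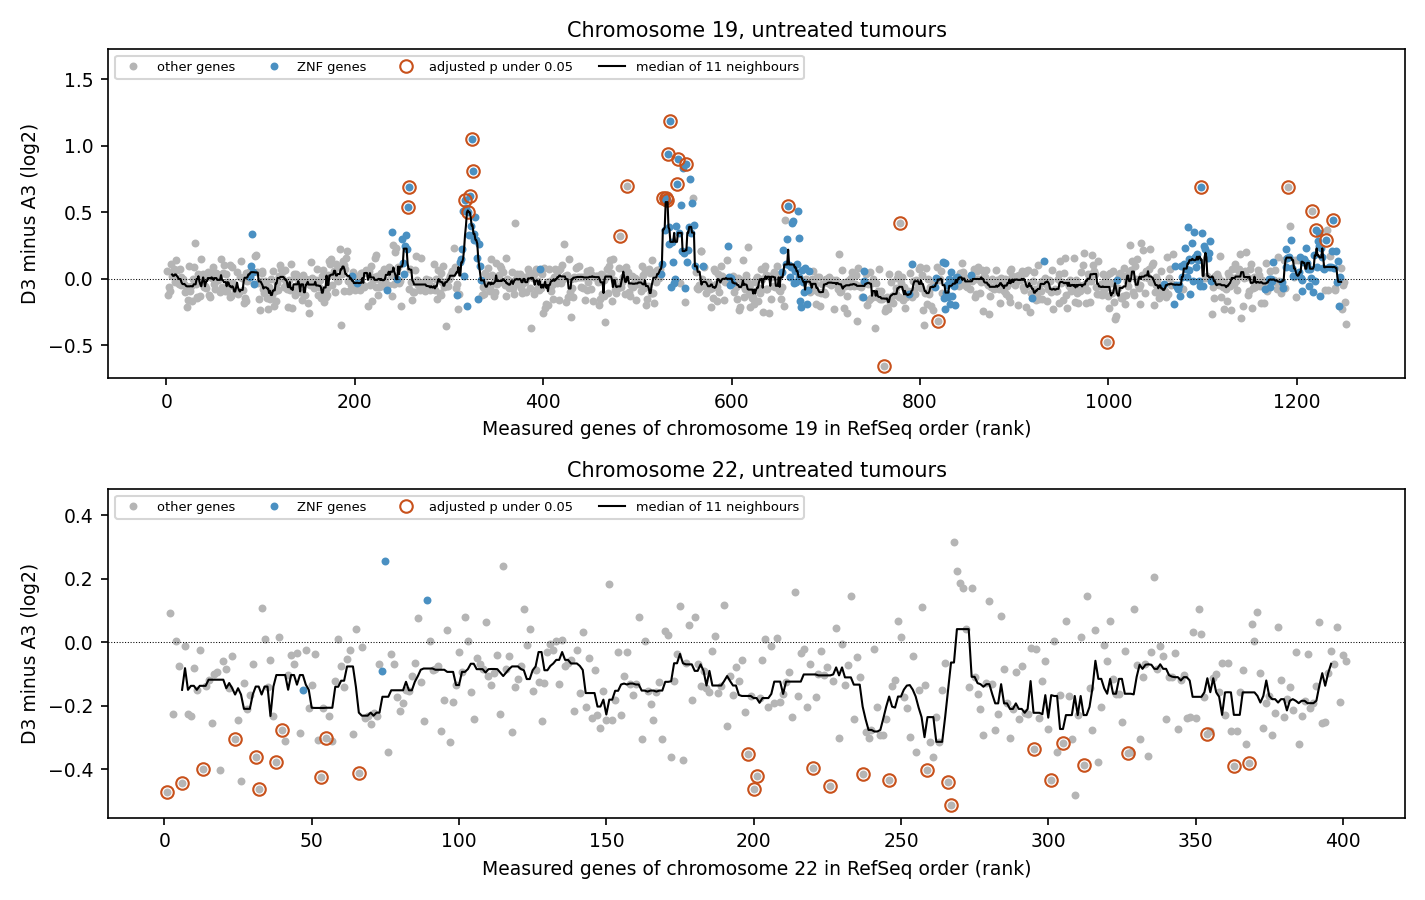
D3 minus A3 in untreated tumours (log2) of each measured gene of chromosome 19 (top) and chromosome 22 (bottom), in RefSeq order by rank. Blue points are genes with a ZNF number, orange rings are called genes and the black line is the median of 11 neighbours; the line peaks over zinc finger clusters of chromosome 19 and stays below 0 along most of chromosome 22.

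Genes of chromosome 22 lay on the lower side. Of 401 measured genes 29 were lower in D3 (7.23%, against 0.97% of all genes) and 0 higher, 337 were negative, and the median was -0.13. The chromosome was picked out after its values were seen. It held 2 of the 3 lowest windows. One ran from DMC1 to APOBEC3B (median -0.31, 3 called) and one from PDXP-DT to POLR2F (median -0.28, all 11 genes negative, 2 called). The mean level of the genes in the first was 7.76 to 7.84 in the A3 arrays, 7.52 to 7.58 in the D3 arrays and 7.47 to 7.56 in untreated wt. A3 was thus the high line, with no overlap with D3. Called genes of varied function included the cytidine deaminase APOBEC3B (-0.51 ± 0.13 SE), the glutathione transferase GSTT1 (-0.47 ± 0.11 SE), the heme oxygenase HMOX1 (-0.46 ± 0.12 SE), the replication factors CDC45 (-0.46 ± 0.10 SE) and MCM5 (-0.42 ± 0.09 SE), the GTPase RAC2 (-0.45 ± 0.11 SE), the galectin LGALS1 (-0.42 ± 0.11 SE) and the RNA polymerase subunit POLR2F (-0.43 ± 0.09 SE). The count was 15 without A3 replicate 1, 5 without A3 replicate 4, 16 without D3 replicate 1 and 14 without D3 replicate 2, and 3 in the fit of these 7 arrays alone.

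Chromosomes 16, 18 and X were also picked out after their values were seen. On chromosome 16, 22 of 723 genes were higher (3.04%, against 1.3% of all genes) and 2 lower (0.277%, against 0.97%). From NFATC3 to the end of chromosome 16 lay 174 measured genes, of which 18 were higher (10.3%) and 0 lower, with a median of 0.15. The start of that stretch was set with the values in view, and the lower genes, NDRG4 (-0.40) and CMTM3 (-0.38), lay outside it. The higher genes there included the amino acid transporters SLC7A6 and SLC7A5, the adhesion protein CDH3 and the lysyl-tRNA synthetase KARS1 (0.34 ± 0.07 SE). On chromosome 18, 12 of 248 genes were higher (4.84%) and 0 lower, with the urea transporter SLC14A1 (0.78 ± 0.16 SE), the transcription factor TCF4 (0.54 ± 0.10 SE) and the proapoptotic protein PMAIP1 (0.40 ± 0.11 SE) among them. On the X chromosome 12 of 638 genes were higher (1.88%, near the 1.3% of all genes) and 19 lower (2.98%, against 0.97%). There STK26, MBNL3 and GPC4 were called within 7 neighbours, while FRMD7 (-0.04), RAP2C (-0.12), HS6ST2 (0.28) and TFDP3 (0.04) between them were not. GPC4, a glypican that binds growth factors through heparan sulfate, read 6.37, 6.48, 6.57 and 6.57 in D3 and 5.33, 5.73 and 5.57 in A3 (0.95 ± 0.10 SE). A lower window of the X chromosome, from GABRE to PNMA6A (median -0.31), held the GABA receptor subunit GABRE (-0.64 ± 0.09 SE), the centrin CETN2 (-0.33 ± 0.07 SE) and the sterol enzyme NSDHL.

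Genes of sterol synthesis were on the lower side in D3. The pathway builds cholesterol from acetyl-CoA by way of mevalonate and squalene, and SREBF2 switches its genes on together when sterols run short. Promoters of 3 called members are shown because they hold repeats of CCAAT, the letters bound by NF-Y, a factor that works beside SREBF2 at such promoters. Capitals mark CCAAT on either strand, read as CCAAT or ATTGG and counted also where matches overlap, in RefSeq sequences on GRCh38.p14 cut as above.
NSDHL, chrX:152830813-152831112, plus strand: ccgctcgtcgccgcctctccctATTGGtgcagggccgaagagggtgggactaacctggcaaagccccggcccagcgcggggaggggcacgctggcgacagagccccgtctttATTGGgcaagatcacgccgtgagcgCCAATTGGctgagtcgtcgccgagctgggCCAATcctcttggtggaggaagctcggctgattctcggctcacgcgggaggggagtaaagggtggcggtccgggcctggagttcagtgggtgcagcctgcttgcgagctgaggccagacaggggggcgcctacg
FDPS, chr1:155308616-155308915, plus strand: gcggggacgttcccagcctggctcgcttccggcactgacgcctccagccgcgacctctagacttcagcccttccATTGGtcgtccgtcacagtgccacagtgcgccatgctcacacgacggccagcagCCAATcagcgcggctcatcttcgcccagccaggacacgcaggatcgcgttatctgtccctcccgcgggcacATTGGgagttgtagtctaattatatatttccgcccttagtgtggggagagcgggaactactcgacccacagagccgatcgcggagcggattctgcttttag
MVK, chr12:109573544-109573843, plus strand: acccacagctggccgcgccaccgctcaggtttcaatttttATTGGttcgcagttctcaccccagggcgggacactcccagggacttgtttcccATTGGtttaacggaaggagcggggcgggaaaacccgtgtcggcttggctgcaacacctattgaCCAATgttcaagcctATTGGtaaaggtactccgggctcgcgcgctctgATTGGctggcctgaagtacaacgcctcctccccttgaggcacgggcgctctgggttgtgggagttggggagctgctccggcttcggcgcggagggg
NSDHL held 5 matches, FDPS 3 and MVK 5. At least 3 matches were found in 6 of 14 promoters of the sterol synthesis list (42.9%), those of MVK, MVD, FDPS, MSMO1, NSDHL and EBP, and in 3.42% of all promoters. Of these genes MVD was not called, and HMGCS1, which was called, held 2.

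The sterol synthesis list had 16 measured members. All 16 had negative differences, 6 of them were called (37.5%, against 0.97% of all genes) and the median was -0.32. HMGCS1, which makes HMG-CoA, read 10.20, 10.28, 10.30 and 10.20 in D3 and 10.81, 10.50 and 10.66 in A3 (-0.41 ± 0.10 SE). Mevalonate kinase MVK read 7.77, 7.67, 7.94 and 7.78 in D3 and 8.15, 8.09 and 8.25 in A3 (-0.37 ± 0.09 SE). FDPS, which makes farnesyl diphosphate, read 9.24, 9.34, 9.34 and 9.29 in D3 and 9.65, 9.66 and 9.89 in A3 (-0.43 ± 0.09 SE). The groups did not overlap in these 3 genes. Among enzymes of the later steps, which rework the sterol skeleton, NSDHL (-0.48 ± 0.08 SE), MSMO1 (-0.46 ± 0.12 SE) and EBP (-0.36 ± 0.09 SE) were lower. NSDHL was the tightest of these, at 9.09, 9.09, 9.09 and 9.13 in D3 and 9.61, 9.48 and 9.64 in A3. MSMO1 overlapped, with D3 arrays from 8.83 to 9.07 and A3 arrays from 9.07 to 9.68. LSS (-0.43, adjusted p 0.0626) was not called, and the smallest differences were those of MVD (-0.05) and SQLE (-0.14).

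The mean level of the list was 9.28, 9.12 and 9.35 in the A3 arrays and 8.89, 8.95, 9.02 and 8.90 in the D3 arrays. These ranges did not overlap, and untreated wt (9.02 to 9.14) lay mostly between them. The count of 6 was 1 without A3 replicate 4, 2 without A3 replicate 1, 2 without D3 replicate 1 and 3 without D3 replicate 2 or 5, and the fit of these 7 arrays alone called 1. Among 17 genes of sterol sensing, uptake and export TMEM97, a sterol-responsive membrane protein, was lower (-0.30 ± 0.08 SE). That is 5.88% of the list, against 0.97% of all genes. Among 17 genes of fatty acid synthesis the malic enzyme ME1 was higher (0.48 ± 0.09 SE), 5.88% of that list against 1.3% of all genes.

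**Figure D3:**
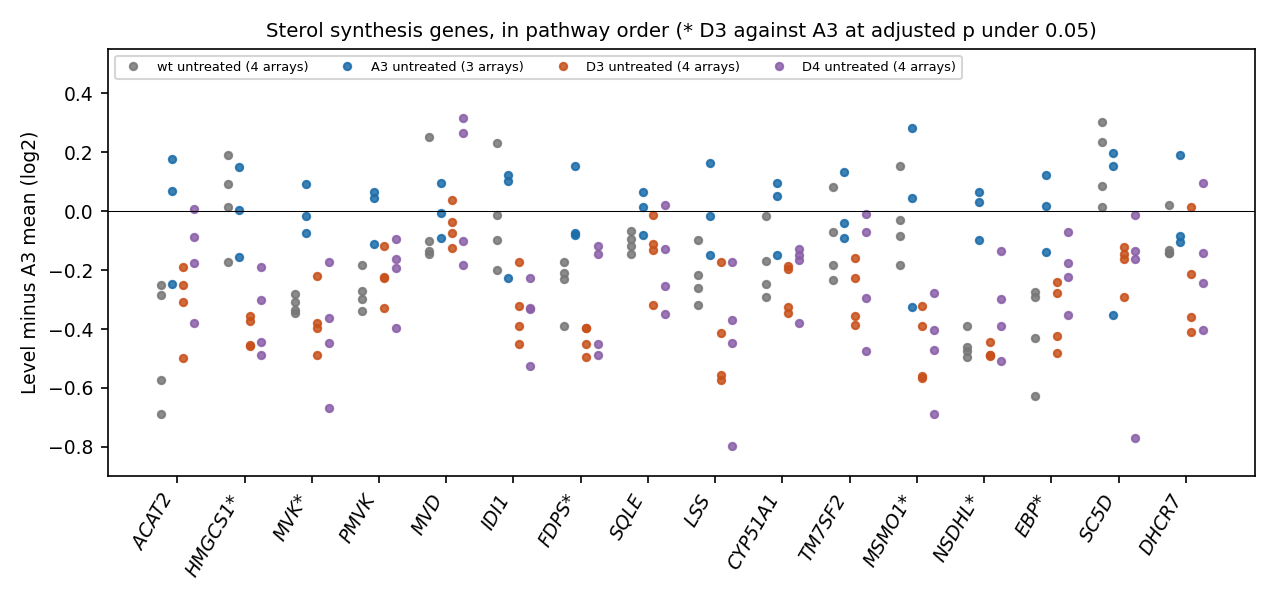
Level of each measured sterol synthesis gene in untreated tumours minus its A3 mean (log2), by array, in pathway order, with an asterisk for genes called between D3 and A3. Grey points are wt, blue A3, orange D3 and purple D4; the D3 points of HMGCS1, FDPS and NSDHL lie below all A3 points.

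Amino acid transport gave some of the tighter moderate differences. SLC1A3, which carries glutamate and aspartate, read 7.35, 7.35, 7.27 and 7.25 in D3 and 6.54, 6.49 and 6.59 in A3 (0.76 ± 0.10 SE). SLC7A6, a cationic and neutral amino acid exchanger, read 8.36, 8.52, 8.56 and 8.44 in D3 and 7.95, 7.94 and 7.84 in A3 (0.56 ± 0.09 SE). SLC7A5, the large neutral amino acid transporter, read 10.33, 10.32, 10.51 and 10.23 in D3 and 9.65, 9.97 and 9.79 in A3 (0.54 ± 0.11 SE). None of the 3 overlapped, and they were the called genes among 22 measured transporters (13.6%, against 1.3% of all genes), with 0 lower. SLC7A6 and SLC7A5 are also among the higher genes of chromosome 16 given above, so the counts are not separate results. BCAT1, a branched-chain amino acid transaminase picked after its value was seen, was higher (0.81 ± 0.13 SE). Of 32 genes of amino acid and unfolded protein stress, the asparagine synthetase ASNS was higher (0.39 ± 0.11 SE) and the chaperone partner SDF2L1 lower (-0.41 ± 0.11 SE), with a list median of 0.03. Each is 3.12% of the list, against 1.3% of all genes higher and 0.97% lower. ASNS was no longer called in 11 and SDF2L1 in 10 of 16 alternative analyses.

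Some epithelial and stem cell genes were higher. Of 31 epithelial genes 4 were higher (12.9%, against 1.3% of all genes) and 0 lower: the desmosome protein DSP (0.69 ± 0.10 SE), P-cadherin CDH3 (0.53 ± 0.10 SE), keratin KRT8 (0.51 ± 0.13 SE) and the adhesion molecule EPCAM (0.32 ± 0.08 SE). DSP read 8.66, 8.51, 8.43 and 8.43 in D3 and 7.90, 7.86 and 7.70 in A3, and wt averaged 8.69 ± 0.04 (SD, n = 4). The list median was 0.02, near that of all genes. Of 26 mesenchymal genes fibronectin FN1 was higher (0.50 ± 0.11 SE) and PDPN lower, each 3.85% of the list (1.3% and 0.97% of all genes). Of 20 stem and progenitor markers 4 were higher and 0 lower, where 1.3% of all genes were higher. The median difference of these 20 markers was 0.03, near that of all genes. The chromatin organiser SATB1 (0.93 ± 0.14 SE) and the R-spondin receptor LGR5 (0.78 ± 0.19 SE) were higher. So were the surface protein CD24 (0.56 ± 0.15 SE) and the laminin receptor chain ITGA6 (0.43 ± 0.09 SE). SATB1 read 6.57, 6.20, 6.46 and 6.56 in D3 and 5.50, 5.39 and 5.65 in A3. TFF1, a trefoil peptide of mucous epithelia picked after its value was seen, read 8.89, 8.82, 9.01 and 8.92 in D3 and 8.06, 8.16 and 8.13 in A3 (0.79 ± 0.09 SE). For DSP, SATB1, LGR5 and TFF1 untreated wt averaged 8.69, 6.69, 9.45 and 8.81, beside 8.51, 6.45, 8.43 and 8.91 in D3, so A3 was the low line in each.

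Signalling genes were called singly and in mixed roles. The list shares that follow stand beside 1.3% of all genes higher and 0.97% lower. In the WNT list of 43 genes LGR5 and RNF43, a ubiquitin ligase that removes WNT receptors (0.61 ± 0.11 SE), were higher (4.65%), with a list median of 0.01. In the list of 31 BMP and activin genes the ligands GDF15 (0.70 ± 0.16 SE) and INHBB (0.39 ± 0.09 SE), the BMP antagonist NOG (0.66 ± 0.16 SE) and the transducer SMAD1 (0.41 ± 0.09 SE) were higher (12.9%) and the receptor BMPR1B lower (3.23%). Among 25 genes of the EGF receptor family and its feedback the ligand TGFA was higher (0.42 ± 0.10 SE, 4.0% of the list), and SPRY1 (-0.29 ± 0.08 SE) and PHLDA1 (-0.24 ± 0.06 SE) were lower (8.0%). The plasminogen activator PLAT was higher (0.59 ± 0.09 SE), at 10.62, 10.63, 10.62 and 10.62 in D3 and 9.91, 10.16 and 10.03 in A3, and the urokinase receptor PLAUR lower (-0.32 ± 0.08 SE). The adhesion molecule NCAM2 read 5.23, 5.33, 5.18 and 5.39 in D3 and 4.50, 4.33 and 4.24 in A3 (0.92 ± 0.14 SE), and the guidance receptor ROBO2 was higher (0.50 ± 0.13 SE), while IL1RAPL1 and the protocadherin PCDH18 (-0.48 ± 0.12 SE) of the same neural adhesion list were lower. Of 27 cancer/testis antigens PASD1 and SSX1 (0.59 ± 0.12 SE) were higher (7.41%) and MAGEC2 lower (3.7%).

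Genes that handle CPA or repair its lesions were read against the 2.27% of all genes called in either direction. Of all 17314 genes 1999 had an unadjusted limma p under 0.05. Of 4 measured genes of CPA activation 0 were called by limma and 1 had an unadjusted p under 0.05, CYP2C8 (-0.49, adjusted p 0.11). Of 19 aldehyde dehydrogenases ALDH18A1, an enzyme of proline synthesis, was lower (-0.33 ± 0.08 SE), a share of 5.26%. Of 26 glutathione genes GSTT1 was lower, with 7.97, 8.04, 8.23 and 8.08 in D3 and 8.51, 8.38 and 8.78 in A3 (3.85% of the list). Among 22 genes induced by NRF2, a regulator of antioxidant defence, ME1 was higher and the transaldolase TALDO1 (-0.30 ± 0.07 SE) and HMOX1 were lower (13.6% called). In the list of 38 repair genes limma called 0, with 2 at an unadjusted p under 0.05, and among 14 drug efflux transporters 0, with 1. In each list with 0 called, a share of 2.27% amounts to less than 1 gene, so that count is no result about these genes. On simulated data the same fit recovered 64.5% of changes of 0.5 and 97.5% of changes of 1 on the log2 scale, so smaller differences in these lists could go undetected with these arrays.

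Some genes of DNA replication and mitosis were lower. Of 50 DNA replication genes CDC45, MCM5 and MCM2 (-0.35 ± 0.09 SE) were lower (6.0%, against 0.97% of all genes) and 0 were higher. CDC45 and MCM5 are also among the lower genes of chromosome 22 given above, so the counts are not separate results. Differences were negative for 35 of them (70.0%, against 55.1% of all genes). CDC45 read 8.29, 8.29, 8.31 and 8.49 in D3 and 8.80, 8.79 and 8.83 in A3, without overlap. Of 52 mitosis genes the separase ESPL1 (-0.40 ± 0.10 SE) and the cytokinesis regulator RACGAP1 (-0.31 ± 0.08 SE) were lower (3.85%), and 46 (88.5%) were negative with a median of -0.13. Lists of 35 hypoxia and glycolysis genes, 29 chemokines and cytokines and 11 clade B serpins held 0 genes called by limma, with 2, 4 and 2 at an unadjusted p under 0.05. Of all 17314 genes 1999 had such a p. In each of these lists the 2.27% of all genes called amounts to less than a whole gene, so a count of 0 is no result about these genes. Of 43 interferon-induced genes the nuclease ISG20 was lower (-0.44 ± 0.12 SE), and of 28 genes of heparan sulfate proteoglycans GPC4 was the called member. These shares, 2.33% and 3.57%, are near the 2.27% of all genes called in either direction.

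Some markers of the tumour cells read high in both clones. The mean level of 10 carcinoma markers was 8.30 to 8.33 in A3 and 8.29 to 8.44 in D3. KRT8 and EPCAM, 2 of the 10, were called as higher in D3, where 1.3% of all genes were higher. Differences were negative for 6 of the 10 markers, and the median of the 10 was -0.07. The prostate factor HOXB13 averaged 10.36 in A3 and 10.46 in D3. The mean level of 11 prostate lineage genes was 6.45 to 6.51 in A3 and 6.36 to 6.48 in D3, below the array medians of 6.59 to 6.73. Of these 11 limma called 0, with 0 at an unadjusted p under 0.05. The 7 lists of host cell types held 0 called genes. In each of these lists the 2.27% of all genes called amounts to less than a whole gene, so a count of 0 is no result about them. Of all 17314 genes 7776 were positive and 1999 had an unadjusted limma p under 0.05, with a median of -0.02. The fibroblast list had 15 of 18 genes positive, 5 at an unadjusted p under 0.05, a median of 0.13 and a mean level of 6.55 to 6.70 in A3 and 6.69 to 6.79 in D3. Its collagen gene COL1A1 read 10.30, 10.19, 10.28 and 10.28 in D3 and 9.51, 10.16 and 9.62 in A3 (0.50, adjusted p 0.111). Array levels have no true 0, a human array can also bind host RNA, and the part of host cells in the results above, FN1 among them, was not tested. A3 replicate 2 deviated most from its group (root mean square 0.232, against 0.126 to 0.179 in the other 6 arrays).

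D3 was also set against D4, the other resistant clone. Between untreated D3 and D4 56 of 17314 genes were called (0.323%), 40 higher in D3 (0.231%) and 16 lower (0.0924%). ZNF711 averaged 6.42 ± 0.36 (SD, n = 4) in D3 and 4.75 ± 0.22 (SD, n = 4) in D4 (1.67, limma adjusted p 2.58e-06). ANKRD30A differed by 1.59 (adjusted p 5.31e-08), ESM1 by 1.11 (adjusted p 1.66e-05), NCAM2 by 1.01 (adjusted p 2.13e-05) and SLC1A3 by 0.77 (adjusted p 1.74e-05). For these genes the mean of D4 lay at or below that of A3 or close above it, and both comparisons use the same D3 arrays. STK26 (0.61, adjusted p 0.0219), GPC4 (0.47, adjusted p 0.00753), MAGEC2 (-0.68, adjusted p 0.00414) and PDPN (-0.41, adjusted p 0.0179) were also called, with D4 between D3 and A3. PASD1 (0.19, adjusted p 0.568), DHRS2 (-0.33, adjusted p 0.265), ZNF626 (0.20, adjusted p 0.597), NTS (0.55, adjusted p 0.413) and TCN1 (0.17, adjusted p 0.705) were not called, which does not show that the 2 clones were equal. The genes with the smallest adjusted p also included the kinesin KIF5C (0.88) and SERPINB7 (0.98) as higher in D3. Tissue factor F3 (-1.52), the proteoglycan SRGN (-0.72), PRSS35 (-0.74), DAZAP2 (-0.47) and the serotonin receptor HTR1E (-0.60) were lower. PRSS35 was also called between D3 and A3 (0.49 ± 0.12 SE), which leaves A3 lowest and D4 highest of the 3 clones. The count of 56 was 35 without D3 replicate 2, 37 without D3 replicate 5 and 22 in a fit of these 8 arrays alone.

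**Figure D4:**
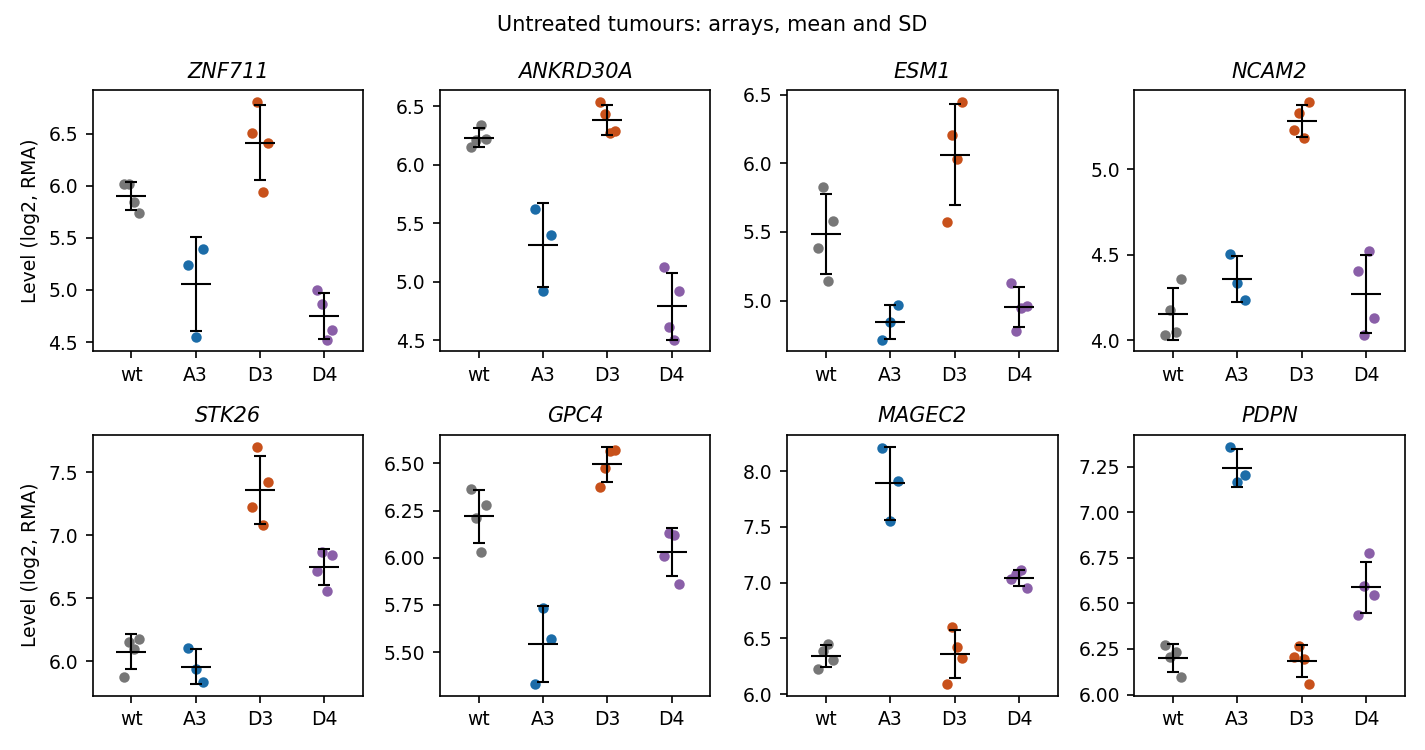
Levels (log2, RMA) of 8 genes in untreated tumours of wt, A3, D3 and D4, with a point for each array and bars for the mean and SD. ZNF711, ANKRD30A, ESM1 and NCAM2 are high in D3 and low in A3 and D4, while D4 takes a middle place between D3 and A3 for STK26, GPC4, MAGEC2 and PDPN.

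The same 2 clones were compared again in CPA-treated tumours. Their group means came from 8 other arrays, but all 31 arrays gave 1 estimate of the spread of each gene, so the sets of calls are not independent. With CPA 787 of 17314 genes were called (4.55%), 270 higher in D3 (1.56%) and 517 lower (2.99%). Of the 393 genes called in untreated tumours, 255 were called in the same direction with CPA (64.9% of the untreated and 32.4% of the treated calls) and 0 in the other. The sign was the same in 387 of the 393 (98.5%), against 63.3% of all genes, and the median difference in the untreated direction was 0.37. With each comparison fitted on its own arrays alone, 105 genes were called in untreated and 404 in treated tumours. Of these, 71 were called in both in the same direction (67.6% of the untreated and 17.6% of the treated calls). PASD1 read 7.49, 7.48, 7.26 and 7.04 in treated D3 and 5.26, 5.57, 5.48 and 5.71 in treated A3 (1.82, limma adjusted p 1.71e-12). NTS read 7.06, 7.52, 6.95 and 6.50 in treated D3 and 9.29, 9.71, 9.11 and 9.26 in treated A3 (-2.33, limma adjusted p 3.48e-08). Neither gene overlapped, as in untreated tumours. DHRS2 (1.60), ZNF711 (1.74), STK26 (1.39) and TFF1 (0.90) were again higher, and MAGEC2 (-1.19), GABRE (-0.89), PDPN (-0.84) and CHRM3 (-0.77) again lower.

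Of the 24 leading genes 22 were called in the same direction with CPA, and the groups did not overlap in 21, where 9.65% of all genes lacked an overlap in treated tumours. SSX8P (-0.32, adjusted p 0.277) and SCN3A (-0.53, adjusted p 0.0967) were not called, and these and SH2D1B were the genes that overlapped. The 6 untreated calls with the other sign were ADGRG2, JPH1, NSUN4, PPM1H, SLC30A2 and TACR3, none of them called with CPA. Chromosome 22 held 55 lower genes and 1 higher of 401. The 19p12 zinc finger list held 9 higher and 0 lower of 31, and the DNA replication list 12 lower of 50. In the sterol synthesis list 2 of 16 were lower, NSDHL and FDPS, with a median of -0.16. Over all genes 2.99% were lower and 1.56% higher with CPA, against 0.97% and 1.3% in untreated tumours. These counts therefore cannot be set directly against the untreated ones. The test of whether the difference between the clones itself changed with CPA called 0 genes in limma, with 507 at an unadjusted p under 0.05. That test carries a larger SE than either comparison and was not among those simulated. A count of 0 thus does not show that the difference stayed the same. The count of 787 was 483 without A3 replicate 1, 481 without D3 replicate 5 and 404 in a fit of the arrays compared alone.

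**Figure D5:**
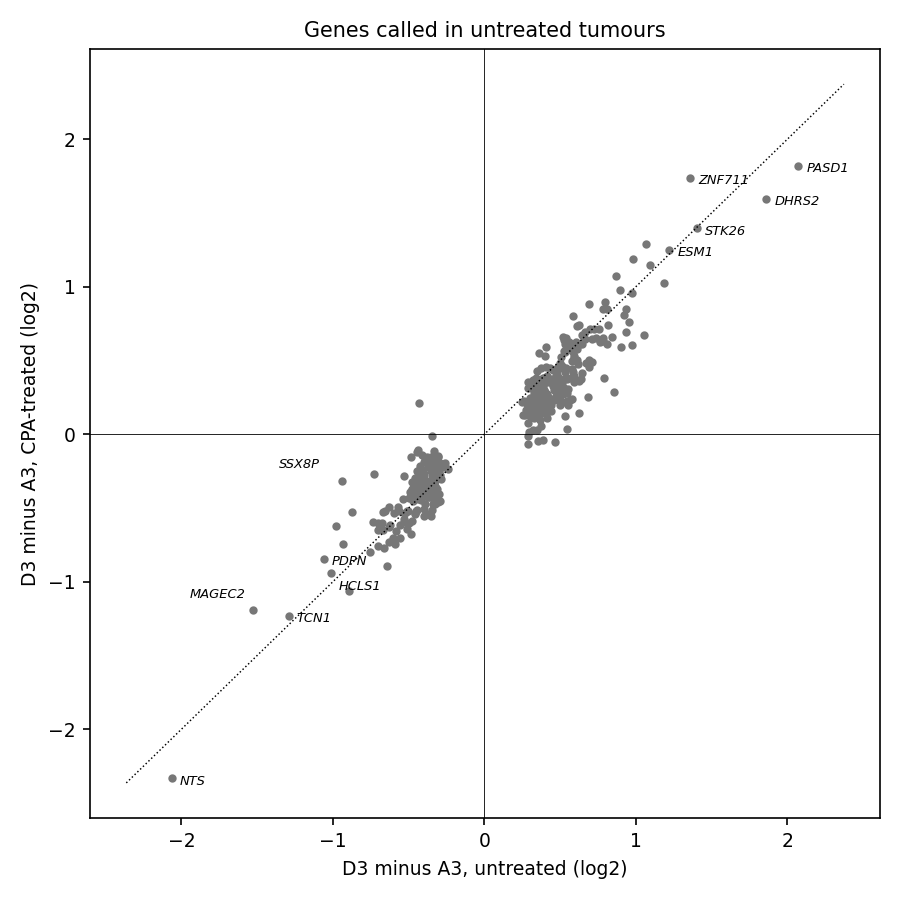
D3 minus A3 (log2) in CPA-treated tumours against the same difference in untreated tumours, for the 393 genes called in untreated tumours. The dotted line marks equal differences, and for 387 genes both differences have the same sign.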

How the data were processed

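The tumours' RNA was hybridised to Affymetrix Human Gene 1.0 ST arrays. The deposited log2 values had been summarised and normalized by RMA, per the submitters' processing notes. Its version is not given in the sources used here. For the series the submitters planned 32 arrays and left out 1. The table held 23989 probe sets, of which 17624 had 1 gene symbol in the platform annotation, 411 several and 5954 none. Each of 17314 genes was represented by its probe set with the highest mean, since 276 genes had several. Symbols were updated to RefSeq on GRCh38.p14, which matched 17290 genes and gave their order along chromosomes.

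Groups were compared with limma 3.58.1 in R 4.3.3, with 8 group means over all 31 arrays (23 residual degrees of freedom), lmFit, eBayes and Benjamini-Hochberg adjustment over all genes. No filter on low values was applied. The fit was tested on simulated data. Tables were made in Python 3.11.15 with pandas 2.3.3. Alternatives were to fit only the arrays of the compared groups, to add a replicate block, a variance trend or array weights, to normalize by quantiles again or centre on medians, to drop the dimmest 30% of genes, to test all probe sets or their mean per gene, and to leave out each array. Pairing was checked by the correlation across genes of the deviations of arrays with the same replicate number. Untreated D3 and D4 shared the numbers 1, 2 and 5, which correlated at 0.32, 0.42 and 0.21. Untreated A3 and D4 correlated at -0.63 for number 2. Arrays with different numbers were not compared, so this check cannot show whether the numbers pair the arrays. The labels do not say what arrays of the same number share.

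Genes were named by a rule: the 12 highest and 12 lowest called genes without overlap, up to 4 genes of each of 42 lists by p, the 5 genes in each direction with the smallest adjusted p for the other comparisons, and genes of the ranked windows. Chromosome stretches, their genes and a few others were picked after their values were seen, as stated. The members and lists were chosen with earlier results of these data known.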

Additional observations from a re-analysis of the deposited data

Results flagged for a closer look

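In 5 called genes 1 untreated D3 array stood apart from the other 3 by a gap beyond Dixon's critical value for groups of 4. CDC45 read 8.4914 in 1 array and 8.2898 to 8.3119 in the other 3. NSDHL read 9.1324 in 1 array and 9.0858 to 9.0901 in the other 3, so the gap is small on the log2 scale and the other 3 arrays were nearly equal. ZNF788P read 6.247 in 1 array and 6.1265 to 6.1385 in the other 3. DDX19A read 8.2544 in 1 array and 8.3948 to 8.4204 in the other 3, and KLHDC4 read 7.9564 in 1 array and 8.0901 to 8.1136 in the other 3. Among 117 groups examined in this way chance alone would set apart about 1 in 20. The cause was not tested, and no D3 array of these genes overlapped A3.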

How the results depend on the processing

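For untreated D3 minus A3, limma called 393 genes. The count was 105 with only the groups compared, 1207 with array weights (537 higher, 670 lower), and 168 to 272 with 1 array left out. Without A3 replicate 2, 119 genes were higher and 137 lower. With CPA the 787 became 404 with only the groups compared and 481 to 716 with 1 array left out. For D3 minus D4 the 56 became 22, 106 with array weights and 35 to 63. The change of the difference with CPA gave 0 calls in all alternatives. The replicate block gave 324 calls for untreated D3 minus A3 (221 higher, 103 lower). These groups share only replicate numbers 1 and 2, whose deviations correlated at -0.35 and -0.46 across genes, which gives no sign that the numbers pair these arrays. The block gave 750 calls with CPA. For D3 minus D4, where deviations of arrays with the same number correlated positively, it gave 65, of which 52 were among the 56. There it changed the call of no gene named for that comparison.

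The counts over gene sets were added after the data were seen. The 6 lower sterol genes became 1 with only the groups compared, 3 under the replicate block, 12 with array weights and 1 to 7 with 1 array left out. The 7 higher 19p12 zinc finger genes, of 31 tested, became 2 with only the groups compared and 3 to 7 with 1 array left out. Without the dimmest 30% of genes 3 of 16 were higher, since the rest of that list lay among the dimmest. The 29 lower genes of chromosome 22 became 3, 19 under the replicate block, 86 with array weights and 5 to 23 with 1 array left out. The 15 higher ZNF genes of the short arm of chromosome 19 became 7 with only the groups compared, 7 without the dimmest genes, where fewer genes were tested, and 5 to 13 with 1 array left out. Otherwise the cause of these changes was not tested.

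The alternatives were followed for 115 of the genes called between untreated D3 and A3, those of the naming rule and most of those picked later. None of these reversed its direction, 38 kept their call in every alternative that tested them and 22 lost it in at least 50% of them. RACGAP1 and ASNS lost it in 11 of 16, and SDF2L1, PLAUR, TMEM97 and NFATC3 in 10. Of the 115, 69 lost their call with only the groups compared, 23 with all probe sets tested and 33 to 53 with 1 array left out. The number of arrays limits the precision, and differences smaller than about 0.5 on the log2 scale were missed in part.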
